A study of Mus musculus with 6 samples.

Results

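The semaphorins, plexins and neuropilins were read in FITC-challenged ear skin as the 31 genes whose symbol is Sema followed by a digit, begins with Plxn, or is Nrp1 or Nrp2, of 19938 genes measured in all. They comprise 20 semaphorin ligands, 9 plexin receptors and 2 neuropilin co-receptors, and each had a probe set listed with that gene alone. Where a gene had several such probe sets, the brightest over the 6 arrays was used, which mattered for Sema4d alone, since the 2 probe sets of Sema6b held the same value on every array. Whole ear skin came from 6 mice aged 10 to 12 weeks, with 1 mouse and 1 challenged ear per Affymetrix array. The CLEC4C-DTR group (3 mice) was heterozygous for a diphtheria toxin receptor transgene named for CLEC4C, which in humans marks plasmacytoid dendritic cells, and the control group held 3 littermates, whose genotype is labelled only as littermate control. Mice of both groups were given 200 ng of diphtheria toxin on days -1, 1, 3 and 5. They were also sensitised with FITC (fluorescein isothiocyanate, a reactive dye) at 0.5% in acetone and dibutyl phthalate, given as 100 µL to shaved abdominal skin on days 0 and 2, and challenged with 20 µL on the right ear on day 6. Ears without FITC and toxin-free CLEC4C-DTR mice were not analysed here, so effects of genotype, toxin and challenge cannot be told apart, and the labels do not say which cells of the ear carried the receptor.

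Semaphorins are secreted or membrane-bound guidance proteins, first known for steering axons, that signal through plexins, receptors with an intracellular domain acting on small GTPases and the cytoskeleton. Most secreted class 3 semaphorins bind a neuropilin, which lends affinity to a plexin A or plexin D partner, while membrane-bound classes bind plexins directly. In skin the family is known for shaping nerve fibres and vessels and for contacts between dendritic cells, T cells and keratinocytes.

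Values are log2 RMA intensities, and each difference is CLEC4C-DTR minus littermate control on that scale. A gene is called changed where limma gave a Benjamini-Hochberg adjusted p under 0.05 over all genes. In CLEC4C-DTR skin 4 members rose, the ligand Sema4a and the receptors Plxnb2, Plxnc1 and Plxnd1, and 4 fell, the ligands Sema3c, Sema3d and Sema3e and the receptor Plxna4. Over all genes tested 9.32% were called, 5.01% higher and 4.31% lower, beside 8 of the 31 members. After median centring of the arrays the 1858 calls over all genes, 998 higher and 860 lower, became 1150 higher and 644 lower, while the members kept 4 and 4. The remaining 23 members did not pass, and 16 of the 31 had an unadjusted p under 0.05, as did 27.3% of all genes. Sema3d alone differed by at least 2-fold, a size that 2.05% of all genes reached with a call. The values of the 2 groups did not overlap in 14 members, 7 higher and 7 lower, against 33.0% of all genes (14.0% higher and 19.0% lower). The median difference was -0.06 over the members and -0.04 over all genes. The plot of differences shows the calls spread over ligands and receptors.

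**Figure D1:**
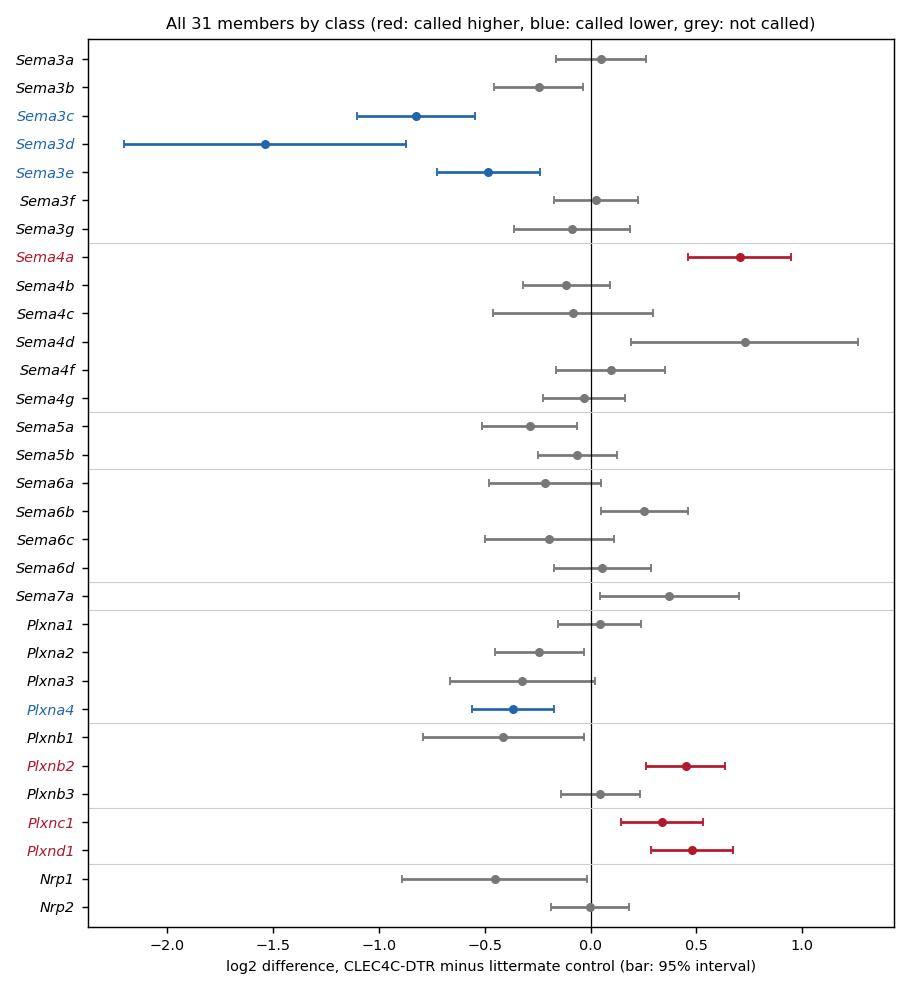
Log2 difference between CLEC4C-DTR and littermate control skin for all 31 members, grouped by class, with limma's 95% interval as the bar (3 arrays per group). Called rises are red, called falls blue and other members grey, and Sema3d, at -1.54, lies farthest from 0.

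These counts changed when single arrays were left out. Leaving out CLEC4C-DTR replicate 3 or control replicate 3 left no member called by limma, with 12 and 10 members at an unadjusted p under 0.05. Of all 19938 genes, 4447 and 3788 had an unadjusted p under 0.05 in these fits. Leaving out control replicate 1 left 1 call, Sema3d, and control replicate 2 left 5. There were 3 calls when CLEC4C-DTR replicate 2 was dropped. Dropping CLEC4C-DTR replicate 1 gave 10, with Sema4d, Plxna3 and Plxnb1 called in addition and Plxnc1 lost. Calls over all genes moved in the same fits, from 67 when control replicate 3 was dropped to 2617 when CLEC4C-DTR replicate 1 was, against 1858 with all arrays.

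Among the secreted class 3 ligands 3 of 7 fell and none rose. Sema3d, a guidance cue for neural crest and endothelial cells, had log2 values of 6.55, 5.71 and 6.22 in CLEC4C-DTR replicates 1, 2 and 3, and 7.20, 7.62 and 8.28 in control replicates 1, 2 and 3. All 3 CLEC4C-DTR values lay below all 3 controls, and both groups were widely spread. The mean was 6.16 ± 0.42 (SD, n = 3) against 7.70 ± 0.54 (SD, n = 3), a 2.90-fold lower level (log2 difference -1.54, SE 0.29, adjusted p = 0.0225). Sema3d passed without CLEC4C-DTR replicate 1 and without control replicates 1 or 2 (adjusted p = 0.0110 to 0.0498), but not without CLEC4C-DTR replicates 2 or 3 or control replicate 3 (adjusted p = 0.0624 to 0.0794).

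Sema3c, which signals through both neuropilins and is known from vessel and cardiac outflow development, had values of 8.11, 7.77 and 7.74 in CLEC4C-DTR skin and 8.72, 8.56 and 8.80 in controls. The groups were separated by 0.45 on the log2 scale, and CLEC4C-DTR replicate 1 lay nearest to the controls. Sema3c was 1.77-fold lower (log2 -0.82, SE 0.12, adjusted p = 0.0143). It did not pass without CLEC4C-DTR replicate 3 or control replicates 1 or 3 (adjusted p = 0.0559 to 0.0724), and passed in the other fits with an array left out (adjusted p = 0.00183 to 0.0420).

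Sema3e, the ligand that binds Plxnd1 without a neuropilin, had values of 6.33, 6.03 and 6.06 in CLEC4C-DTR skin and 6.58, 6.56 and 6.73 in controls. Again the groups did not overlap and CLEC4C-DTR replicate 1 was nearest to the controls. The level was 1.40-fold lower (log2 -0.48, SE 0.11, adjusted p = 0.0332), and with 1 array left out Sema3e passed only without CLEC4C-DTR replicate 1 (adjusted p = 0.00977, against 0.0571 to 0.129 in the other 5 fits).

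The other 4 class 3 ligands were not called. Sema3b, a ligand of both neuropilins, differed by -0.24 (95% interval -0.46 to -0.03, adjusted p = 0.132), with the lowest control at 6.24 just above the highest CLEC4C-DTR value at 6.20. Sema3a, the best known axon repellent of the class and a product of keratinocytes, differed by 0.05 (95% interval -0.16 to 0.26). For Sema3f and Sema3g, ligands that act through Nrp2, the differences were 0.03 (95% interval -0.17 to 0.22) and -0.09 (95% interval -0.36 to 0.18), and the groups overlapped. A difference of the size measured for Sema3e, Sema3c or Sema3d lay outside the intervals of Sema3a, Sema3f and Sema3g.

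In RefSeq's gene order for assembly GRCm38.p6 the 3 ligands that fell and Sema3a lie on 1 stretch of mouse chromosome 5, in the order Sema3d, Sema3a, Sema3e, Sema3c. Sema3a, next to Sema3d, was thus not called between neighbours that fell. Between Sema3d and Sema3c lie 18 further protein-coding genes, of which 4 were measured and none was called by limma, with 1 (Hgf) at an unadjusted p under 0.05. The 250 bases before the RefSeq start of each of the 4 ligands are shown because these neighbours differed in response and their start regions differ in base composition. They are from GRCm38.p6, 5′ to 3′ on the gene's strand, with capitals marking GC boxes (GGGCGG on either strand), at chr5:12382916-12383165 on the plus strand, chr5:13396534-13396783 on the plus strand, chr5:14025026-14025275 on the plus strand and chr5:17574566-17574815 on the plus strand.
Sema3d: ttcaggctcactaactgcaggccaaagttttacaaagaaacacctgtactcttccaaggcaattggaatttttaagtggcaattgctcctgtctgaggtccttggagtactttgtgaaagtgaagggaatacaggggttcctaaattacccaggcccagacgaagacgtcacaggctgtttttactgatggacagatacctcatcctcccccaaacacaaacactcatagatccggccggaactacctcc
Sema3a: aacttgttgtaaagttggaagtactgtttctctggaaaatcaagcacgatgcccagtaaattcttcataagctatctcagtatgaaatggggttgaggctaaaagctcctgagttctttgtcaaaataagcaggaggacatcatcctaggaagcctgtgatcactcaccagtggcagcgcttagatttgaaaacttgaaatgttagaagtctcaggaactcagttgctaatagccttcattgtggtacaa
Sema3e: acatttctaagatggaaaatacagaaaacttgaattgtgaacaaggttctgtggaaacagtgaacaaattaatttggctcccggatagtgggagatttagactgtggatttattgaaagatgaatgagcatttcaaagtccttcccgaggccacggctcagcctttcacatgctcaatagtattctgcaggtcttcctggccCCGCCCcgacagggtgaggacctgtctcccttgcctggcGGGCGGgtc
Sema3c: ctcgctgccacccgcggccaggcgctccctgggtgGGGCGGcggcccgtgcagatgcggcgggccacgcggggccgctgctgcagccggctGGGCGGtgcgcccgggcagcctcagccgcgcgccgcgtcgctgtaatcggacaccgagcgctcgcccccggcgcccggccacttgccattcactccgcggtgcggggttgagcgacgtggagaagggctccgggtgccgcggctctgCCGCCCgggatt
The share of G and C was 46.8% for Sema3d, 40.8% for Sema3a and 48.0% for Sema3e, against 78.4% for Sema3c. GC boxes numbered 2 for Sema3e and 3 for Sema3c, and none was found in the windows of Sema3d and Sema3a. Of the 3 ligands that fell, Sema3d and Sema3e were close in base composition and Sema3c stood apart, and their GC box counts differed. Any part of these windows in the differences was not tested.

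Of the 6 class 4 ligands, which span the membrane, 1 rose and none fell. Sema4a, found on dendritic cells and activated T cells and a costimulatory ligand of T cells, had values of 8.44, 8.72 and 8.64 in CLEC4C-DTR skin and 7.81, 8.04 and 7.82 in controls. Every CLEC4C-DTR value was above every control, with a gap of 0.40. Sema4a was 1.63-fold higher (log2 0.71, SE 0.11, adjusted p = 0.0146). It did not pass without CLEC4C-DTR replicate 3 or control replicates 1 or 3 (adjusted p = 0.0574 to 0.0748), and passed in the other 3 fits with an array left out (adjusted p = 0.00428 to 0.0421).

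Sema4d, also called Cd100, is carried by T cells and binds Plxnb1, Plxnb2 and the B cell receptor Cd72. Its difference of 0.73 was as large as that of Sema4a but was not called (SE 0.23, 95% interval 0.19 to 1.26, adjusted p = 0.0885). The values were 7.12, 8.05 and 7.73 in CLEC4C-DTR skin and 7.10, 7.01 and 6.61 in controls, so that CLEC4C-DTR replicate 1 lay at the level of the highest control. Without that array Sema4d passed (log2 0.98, adjusted p = 0.0114). With any other array left out it did not (0.140 to 0.269). A dimmer probe set of Sema4d differed by 0.12 (SE 0.07, adjusted p = 0.358 over all listed probe sets), so the 2 probe sets disagreed in size.

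Sema4b, Sema4c, Sema4f and Sema4g differed by -0.11, -0.08, 0.10 and -0.03, with overlapping groups and adjusted p of 0.455 to 0.857. Sema4c, a ligand of Plxnb2, was spread from 6.89 to 7.55 within the controls alone, wider than its difference.

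None of the 7 ligands of classes 5, 6 and 7 was called by limma, with 3 at an unadjusted p under 0.05. Sema7a, anchored to the membrane by a lipid and binding Plxnc1 and an integrin, had values of 6.75, 7.29 and 6.86 in CLEC4C-DTR skin and 6.51, 6.70 and 6.58 in controls. The groups did not overlap, but by only 0.05, and the difference of 0.37 (95% interval 0.05 to 0.70) gave an adjusted p of 0.136. Sema5a, which carries thrombospondin repeats, differed by -0.29 (adjusted p = 0.104) and Sema5b by -0.06. Among class 6, whose members bind plexin A receptors, Sema6b differed by 0.25 (adjusted p = 0.113), Sema6a by -0.22, Sema6c by -0.19 and Sema6d, a ligand of Plxna1, by 0.06.

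**Figure D2:**
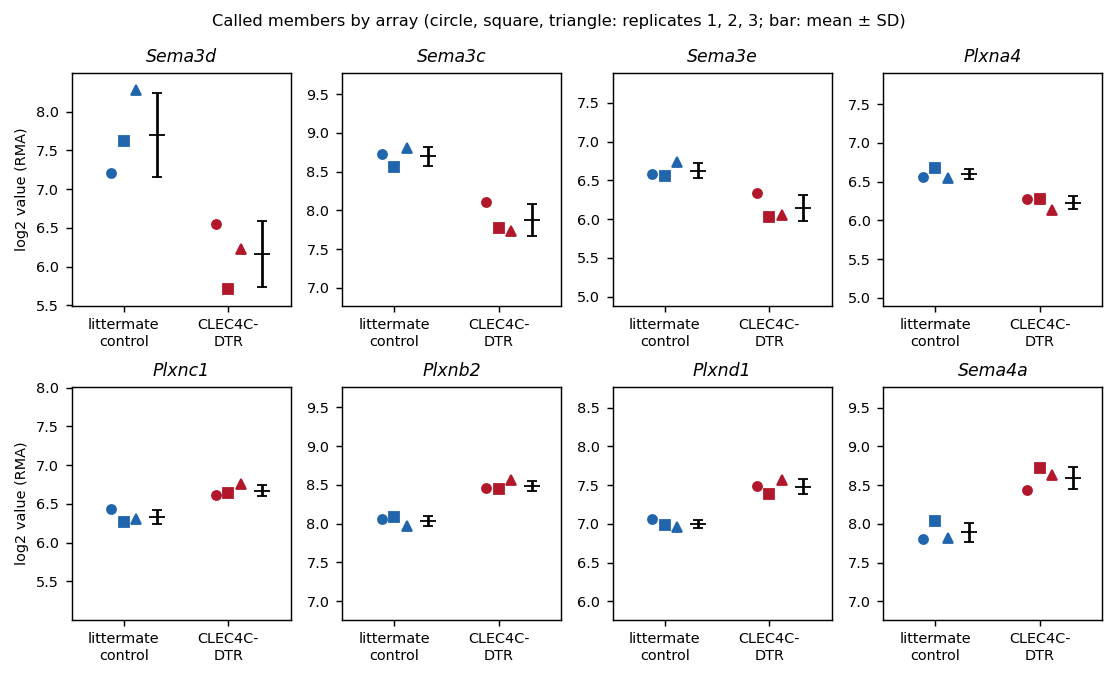
Log2 RMA value of each array for the 8 called members, ordered from the largest fall to the largest rise, with littermate controls in blue and CLEC4C-DTR mice in red, and mean ± SD beside them (n = 3). Each panel spans 3 log2 units with its own origin, and in none of the 8 do the groups overlap.

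Of the 9 plexins, 3 rose and 1 fell. The rises were those of Plxnd1, Plxnb2 and Plxnc1, and their spread within a group was small. Plxnd1, the receptor of Sema3e and a regulator of vessel patterning, had values of 7.48, 7.38 and 7.57 in CLEC4C-DTR skin and 7.06, 6.98 and 6.96 in controls. All CLEC4C-DTR values were higher, by at least 0.32. The level was 1.39-fold higher (log2 0.48, SE 0.08, adjusted p = 0.0190), and it passed without CLEC4C-DTR replicates 1 or 2 or control replicate 2 (adjusted p = 0.0219 to 0.0433), but not without CLEC4C-DTR replicate 3 or control replicates 1 or 3 (adjusted p = 0.0617 to 0.0881).

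Plxnb2, a receptor of Sema4c and Sema4d found on keratinocytes, read 8.46, 8.44 and 8.56 in CLEC4C-DTR skin and 8.06, 8.08 and 7.96 in controls. The groups were 0.36 apart, more than the range within either group. It was 1.37-fold higher (log2 0.45, SE 0.08, adjusted p = 0.0195). The call held without CLEC4C-DTR replicate 1 or control replicate 2 (adjusted p = 0.0204 and 0.0373) and was lost with any other array left out (adjusted p = 0.0504 to 0.0905).

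Plxnc1, the receptor of Sema7a on leukocytes and melanocytes, was 1.26-fold higher, with values of 6.62, 6.64 and 6.75 against 6.43, 6.26 and 6.30 in controls. The groups did not overlap, yet the call was close to the threshold (log2 0.34, SE 0.08, adjusted p = 0.0471). It was lost in all 6 fits with an array left out (adjusted p = 0.0508 to 0.161), with trended robust variances (adjusted p = 0.0524) and in 3 of the other alternatives.

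The regions before the RefSeq starts of Plxnd1 and Plxnc1 are shown as those of the plexins that rose and have 1 listed start, in the same form as above, at chr6:115995006-115995255 on the minus strand and chr10:94944846-94945095 on the minus strand.
Plxnd1: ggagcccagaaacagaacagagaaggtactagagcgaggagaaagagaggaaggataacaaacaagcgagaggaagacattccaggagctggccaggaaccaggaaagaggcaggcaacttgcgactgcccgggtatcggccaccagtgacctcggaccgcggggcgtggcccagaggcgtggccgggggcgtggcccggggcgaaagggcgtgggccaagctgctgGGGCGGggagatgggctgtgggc
Plxnc1: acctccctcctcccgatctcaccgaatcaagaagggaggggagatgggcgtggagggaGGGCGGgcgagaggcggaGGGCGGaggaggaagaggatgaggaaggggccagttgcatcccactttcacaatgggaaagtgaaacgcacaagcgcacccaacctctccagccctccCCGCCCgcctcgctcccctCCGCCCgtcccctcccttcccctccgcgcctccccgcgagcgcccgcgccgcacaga
Both are rich in G and C, at 64.8% for Plxnd1 and 68.8% for Plxnc1, with 1 and 4 GC boxes.

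RefSeq's promoter table held 37 start windows for 26 members, and 6 motifs were searched on both strands of the 250 bases before each start. A GC box (GGGCGG) was found in 73.0% of the members' windows, against 32.7% of all 32851 windows. Counted by gene, 21 of the 26 members had it in at least 1 window, and so did 6 of the 7 called members among them. The share of G and C over all windows had a median of 52.4% and an upper quartile of 61.2%. In the members' windows it ran from 40.8% (Sema3a) to 78.4% (Sema3c). The TATA box (TATAAA) and the STAT motif (TTCNNNGAA) were found in no window of a member, against 12.4% and 7.02% of all windows. The loose kappa B motif (GGG, any 5 bases, then CC), which can overlap GC boxes, was in 64.9% against 45.8%, the AP-1 motif (TGANTCA) in 8.11% against 6.75% and the E-box (CACGTG) in 5.41% against 6.02%. Windows of 1 gene are not independent, and a motif is a match of letters only.

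Plxna4, a plexin of sensory neurons that works with neuropilins and binds class 6 ligands, was the receptor that fell. Its values were 6.28, 6.28 and 6.13 in CLEC4C-DTR skin and 6.57, 6.67 and 6.55 in controls. The groups were 0.27 apart. It was 1.29-fold lower (log2 -0.37, SE 0.08, adjusted p = 0.0363) and passed with 1 array left out only without CLEC4C-DTR replicate 1 (adjusted p = 0.0390, against 0.0752 to 0.114 in the other 5 fits).

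The remaining plexins were not called. Plxnb1, a receptor of Sema4d that couples to the growth factor receptor Met, read 8.17, 7.54 and 7.80 in CLEC4C-DTR skin and 8.12, 8.45 and 8.18 in controls (log2 -0.41, SE 0.16, adjusted p = 0.153). CLEC4C-DTR replicate 1 lay among the controls, and without it Plxnb1 passed (adjusted p = 0.0322). Plxna3, a partner of Nrp2, behaved in the same way, with a difference of -0.32 (SE 0.15, adjusted p = 0.206) and an adjusted p of 0.0174 without CLEC4C-DTR replicate 1. Plxna2, a receptor of Sema6a, differed by -0.24 (adjusted p = 0.134), with the groups 0.02 apart. Plxna1, which dendritic cells carry, differed by 0.04 (95% interval -0.15 to 0.24) and Plxnb3, a receptor of Sema5a, by 0.05 (95% interval -0.14 to 0.23).

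Neither neuropilin was called, with 1 of the 2 at an unadjusted p under 0.05. Nrp1, co-receptor of class 3 ligands and of VEGF on endothelium and a surface marker of regulatory T cells, read 7.08, 6.66 and 7.30 in CLEC4C-DTR skin and 7.27, 7.34 and 7.79 in controls. The groups overlapped at CLEC4C-DTR replicate 3 and control replicate 1. Its difference was -0.45 (SE 0.19, 95% interval -0.89 to -0.02, adjusted p = 0.171). Nrp2, the neuropilin of lymphatic endothelium, differed by -0.00 (SE 0.08, 95% interval -0.19 to 0.18, adjusted p = 0.984), and its 6 values ran from 7.16 to 7.33.

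**Figure D3:**
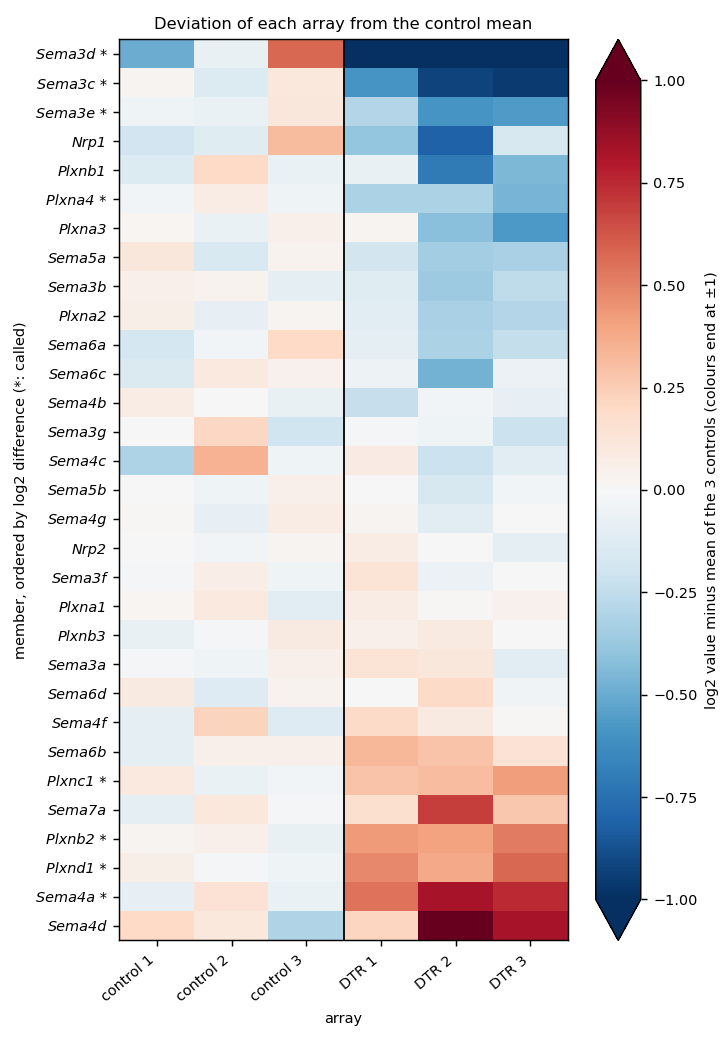
Log2 value of each array minus the mean of the 3 controls, for the 31 members ordered by their difference, with called members starred and colours ending at ±1. CLEC4C-DTR replicate 1 is paler than replicates 2 and 3 for Sema3c, Sema3e, Plxna3, Plxnb1, Sema4a and Sema4d, but not for Plxnb2 and Plxnd1.

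Values of known ligands and receptors can be set side by side. Sema3e fell by 0.48 on the log2 scale while its receptor Plxnd1 rose by 0.48. Sema3c and Sema3d fell, and Nrp1, through which both act, had an uncalled difference of the same sign. Sema4a rose, and of the plexins it binds Plxnd1 and Plxnb2 rose while Plxnb1 and Plxnb3 were not called. For the pair Sema7a and Plxnc1 the receptor was called and the ligand, with a similar difference (0.37 and 0.34), was not.

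Other parts of the pathway were read from 4 lists. Of 13 other receptors and co-receptors of semaphorins, 1 rose and none fell: Tyrobp, a signalling adaptor of myeloid cells that couples to Plxna1 through Trem2, by 0.85 (SE 0.17, adjusted p = 0.0264). Trem2 itself differed by 0.03, Cd72 and Timd2, the non-plexin receptors of Sema4d and Sema4a, by 0.06 and 0.02, and Met by -0.00, all uncalled. Of 25 measured intracellular partners of plexins 3 rose and 1 fell. Rnd1, a small GTPase that binds plexins, rose by 1.40 (SE 0.32, adjusted p = 0.0353), the tyrosine kinase gene Fes by 0.73 (adjusted p = 0.0473) and Gipc1, a scaffold that binds Nrp1, by 0.30 (adjusted p = 0.0416). Arhgef12, an exchange factor that links plexin B receptors to RhoA, fell by 0.45 (adjusted p = 0.0444). Of the 6 proteases that cut semaphorins 2 rose and none fell: Furin, which processes class 3 semaphorins, by 1.04 (SE 0.18, adjusted p = 0.0194), and Mmp14, a sheddase of Sema4d, by 0.50 (adjusted p = 0.0212). Adam17 differed by 0.04. Among 8 VEGF ligands and receptors, which share the neuropilins, Vegfa rose by 0.44 (adjusted p = 0.0354) and Pgf by 0.88 (adjusted p = 0.0412), and none was called lower. Vegfd and Vegfc differed by -0.49 and -0.27, uncalled, and of the 8 genes 4 differed upwards and 4 downwards. In the order given, 7.69%, 16%, 33.3% and 25% of the 4 lists were called, against 9.32% of all genes. The median differences of the 4 lists were 0.00, -0.02, 0.20 and -0.01. Without CLEC4C-DTR replicate 3, control replicate 1 or control replicate 3 limma called no gene of these 4 lists, with 2 to 9 of each at an unadjusted p under 0.05, and without CLEC4C-DTR replicate 2 it called 1, a protease. Of all 19938 genes, 4447, 4446 and 3788 had an unadjusted p under 0.05 in the first 3 of these fits.

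Markers of several cell types were also called in the same comparison. Over all genes 5.01% were called higher and 4.31% lower. In whole skin, fewer cells of a type and less RNA per cell cannot be told apart. The keratins Krt5 and Krt14 of basal keratinocytes read 11.94 to 12.34 and 12.01 to 12.22 over all arrays. Of the other 5 genes of that list Krt15 fell (log2 -1.60), and Col17a1, Trp63 and Itga6 differed by -0.36, -0.33 and -0.21, uncalled. The groups did not overlap for these 3 genes, which was also so, in the lower direction, for 19.0% of all genes. Beside the rises of Sema4a, Plxnb2, Plxnc1 and Plxnd1, 7 of 8 neutrophil markers rose, among them S100a9 (log2 1.49) and S100a8 (log2 1.62), and 6 of 7 macrophage and monocyte markers, among them Cd68 (log2 0.92) and Mrc1 (log2 1.57). So did 4 of 8 dendritic and Langerhans cell markers, with Fscn1 (log2 0.98) and Itgax (log2 0.53) among them, and 2 of 7 T cell markers, Cd2 (log2 1.18) and Icos (log2 1.37). In the dendritic and Langerhans list Flt3, Zbtb46, Xcr1 and the Langerhans marker Cd207 were not called, at 0.23, -0.03, -0.04 and -0.36. The mean log2 level of the neutrophil list ranged from 9.50 to 10.94 in CLEC4C-DTR mice and 8.02 to 8.39 in controls. For macrophages and monocytes the ranges were 8.80 to 9.01 and 7.70 to 8.18, for the dendritic and Langerhans list 6.27 to 6.48 and 5.80 to 5.97, and for T cells 7.20 to 7.64 and 6.58 to 6.89. With 1 array left out the rises numbered 2 to 8, 1 to 6, 1 to 4 and 0 to 4 for these 4 lists. Their part in the rises of the members was not tested.

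Beside the falls of Sema3c, Sema3d, Sema3e and Plxna4, several lists of skin structure read lower. Over all genes 9.32% were called, 4.31% of them as lower in the whole set of genes tested. Of 5 measured Schwann cell and nerve markers 2 fell, Cdh19 (log2 -1.15) and S100b (log2 -0.98), and the list mean was 6.39 to 6.72 in CLEC4C-DTR mice and 6.96 to 7.22 in controls. The markers Sox10, Mbp and Ncam1 differed by -0.06, -0.23 and -0.32, uncalled, and the groups overlapped for Sox10. In the adipocyte list Adipoq (log2 -1.38) and Fabp4 (log2 -1.13) fell, of 5 measured, and in the skeletal muscle list Mylpf (log2 -1.06) and Tnnt3 (log2 -0.67), of 5. Cnmd (log2 -0.93) and Acan (log2 -0.69) fell of 5 cartilage markers, and Pmel (log2 -0.52) and Tyrp1 (log2 -0.39) of 5 melanocyte markers. Single falls were those of Rgs5 (log2 -0.85) among 6 mural cell markers, Krt15 (log2 -1.60) among 7 basal keratinocyte markers and Sox9 (log2 -0.66) among 8 hair follicle markers. The mean of each of these 7 lists was lower in every CLEC4C-DTR mouse than in every control. No fall was called in these 7 lists or the nerve list without CLEC4C-DTR replicate 3, control replicate 1 or control replicate 3, with 2 to 5 of each at an unadjusted p under 0.05. Of all 19938 genes, 4447, 4446 and 3788 had an unadjusted p under 0.05 in these fits. Without CLEC4C-DTR replicate 1 the falls numbered 1 to 3 in each list. The adipocyte list had the widest difference, at 5.86 to 6.28 against 6.73 to 7.50. Fibroblast markers were mixed, with Pdgfra rising by 0.53 and Dpt falling by 0.96, of 8 measured, and their list means overlapped (9.11 to 9.29 against 9.26 to 9.54). In this list 1 rise and 1 fall were called without CLEC4C-DTR replicate 1 and without control replicate 2. No fibroblast marker was called without CLEC4C-DTR replicates 2 or 3 or control replicates 1 or 3, with 3 to 5 at an unadjusted p under 0.05. The means of the blood endothelial list also overlapped (6.83 to 6.92 against 6.80 to 6.88), with 1 rise of 7, Pecam1 (log2 0.40), as did those of the lymphatic list (7.11 to 7.16 against 6.99 to 7.23), with 1 fall of 5, Reln (log2 -0.44). Both lists were mixed in direction. Of the 7 blood endothelial markers 4 differed downwards, among them Tek by -0.23, uncalled. Of the 5 lymphatic markers 3 differed upwards, among them Pdpn by 0.52, uncalled. With 1 array left out, each of these lists had a call only without CLEC4C-DTR replicate 1, and in the other 5 fits 1 to 3 blood endothelial and 2 lymphatic markers had an unadjusted p under 0.05. The part of these cells in the falls was not tested. B cell and plasmacytoid dendritic cell markers were called by limma in 0 of 4 and 0 of 7, although 1 and 2 had an unadjusted p under 0.05. With 1 array left out, 2 plasmacytoid markers were called higher without control replicate 2 and 1 lower without CLEC4C-DTR replicate 1, and no B cell marker was called. The mean of the plasmacytoid list was 8.13 to 8.24 in CLEC4C-DTR mice and 8.13 to 8.40 in controls, and array values have no zero by which a marker could be called absent. Genes of this list were unlike in brightness, with control means from 5.64 for Siglech to 11.43 for Ly6d. They differed by -0.17 and -0.17, and of the 7 genes 5 differed downwards and 2 upwards, all uncalled. Whether the number of plasmacytoid cells differed was not tested.

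**Figure D4:**
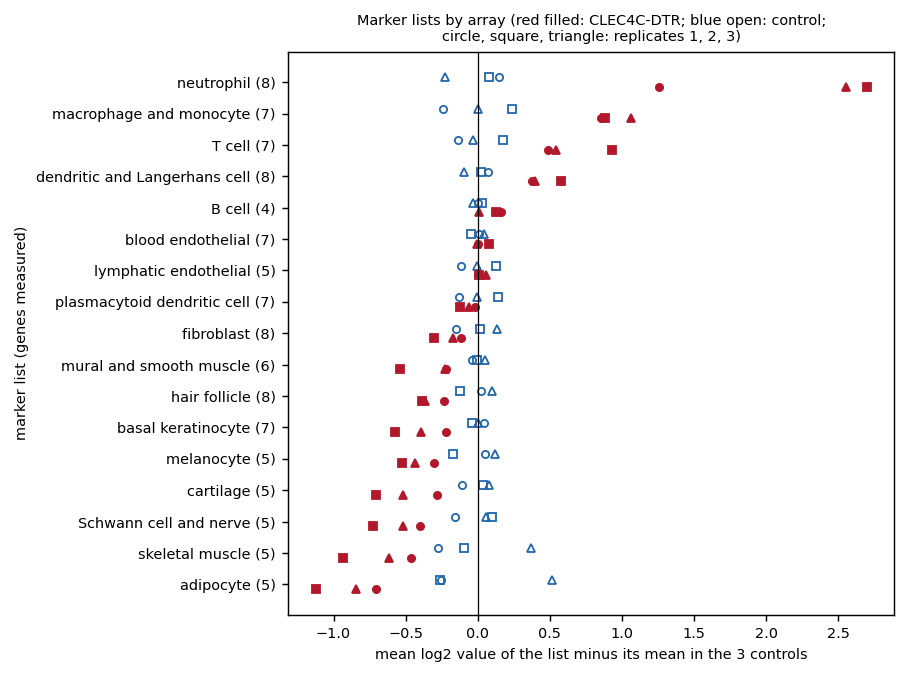
Mean log2 value of each marker list on each array minus its mean in the 3 controls, with the number of genes measured in brackets. The neutrophil list lies highest in CLEC4C-DTR mice and is lower in replicate 1 than in replicates 2 and 3, and the adipocyte list lies lowest.

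CLEC4C-DTR replicate 1 stood nearer to the controls in the neutrophil list (9.50, against 10.94 and 10.79 in replicates 2 and 3), as it did for Sema4d, Plxnb1 and Plxna3. It did not do so for Plxnb2 or Plxnd1. In all, 3 of the 8 calls (Sema3c, Sema4a and Plxnd1) held without CLEC4C-DTR replicates 1 or 2 or control replicate 2, and Sema3d held in 3 of the 6 fits as well. The plot of adjusted p under each setting shows this for all 8.

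**Figure D5:**
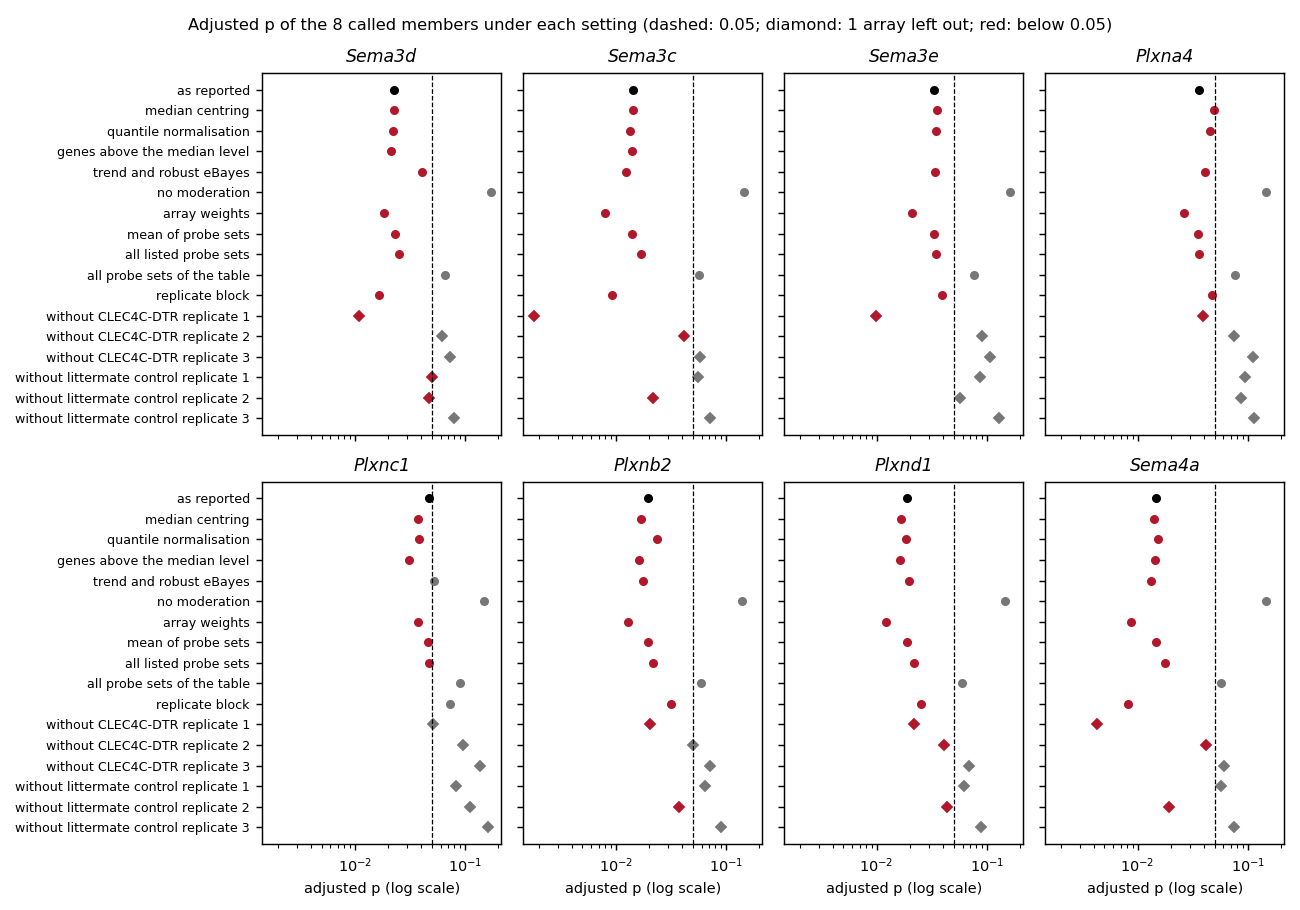
Adjusted p (log axis) of the 8 called members as reported (black) and under each other setting, red below 0.05 and grey above, with diamonds for the fits without 1 array. All 8 lie above 0.05 without variance moderation, when every probe set of the table is tested, and when CLEC4C-DTR replicate 3 or control replicate 3 is left out.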

How the data were processed

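Total RNA of whole ear skin was hybridised to Affymetrix Mouse Gene 1.0 ST arrays, and the log2 intensities deposited by the authors were RMA values, according to the series' design text; RMA corrects background, normalises by quantiles and summarises each probe set. The log2 scale was read from the values (1.60 to 13.9). The RMA software was not given in the sources at hand. RMA hides a change shared by most genes and compresses that of dim genes, and no background measure or depth was at hand.

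Of 35556 probe sets, 21789 had 1 gene symbol in the platform annotation, 1621 several, and 12146 were not listed. The brightest probe set per symbol gave 19938 genes, with no filter on low values. Groups were compared by limma 3.58.1 (lmFit, eBayes, R 4.3.3), two-sided, without covariates, adjusted over all genes. With 3 arrays a group, the smallest p of a two-sided exact permutation test would be 0.1. On simulated data of 19938 genes limma recovered 16 of 50 genes changed by 0.5 and 42 of 50 changed by 1 (log2). That simulation held fewer changed genes, with 161 calls in all against 1858 in the data, so its recovery rates need not hold here. Members, gene lists and tests were chosen with earlier results of these data known, and all 31 members are named. Of each pathway list every called gene is named, and of each cell list up to 2 called genes by smallest p. Trem2, Cd72, Timd2, Met, Adam17, Cd36, Hgf, Krt5, Krt14, Col17a1, Trp63, Itga6, Flt3, Zbtb46, Xcr1, Cd207, Siglech and Ly6d were named after their values were seen, and the motifs were also chosen after the data were seen. Vegfd, Vegfc, Tek, Pdpn, Sox10, Mbp and Ncam1 were likewise named after their values were seen. Alternatives covered scaling, filters, variance models, probe sets, single arrays and a replicate block. Figures were drawn with matplotlib 3.10.9.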

Additional observations from a re-analysis of the deposited data

How the results depend on the processing

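The 8 calls, 4 higher and 4 lower, were also made with median centring, a further quantile normalisation, array weights, the mean of a gene's probe sets and all listed probe sets. Over genes above the median level 2 falls remained, because Sema3e and Plxna4 were not tested there. Without moderation, and when all 35556 probe sets were tested (an alternative chosen after seeing the data), limma's count was 0 for members, rises, falls and 2-fold differences, with 12 and 14 members at an unadjusted p under 0.05, and 0 and 95 features were called in all. In these fits 4387 of 19938 genes and 7787 of 35556 probe sets had an unadjusted p under 0.05. With 1 array left out, members called ranged from 0 to 10, rises from 0 to 4, falls from 0 to 6 and 2-fold differences from 0 to 1. With the replicate number as a block 7 members were called and Plxnc1 was lost (adjusted p = 0.0737). Deviations of same-numbered arrays correlated at -0.06, 0.22 and 0.10, so the numbers were not taken to pair the mice.

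Differences near 0 changed sign in 15 combinations of member and alternative, over 7 uncalled members, each with an adjusted p above 0.7. After quantile normalisation Sema3f was at -0.0205, Plxna1 at -0.0032 and Sema4g at 0.0296, and after median centring Sema4g was at 0.0151 and Nrp2 at 0.0409. With 1 array left out the differences ran from -0.0301 to 0.0669 for Sema3f, -0.189 to 0.0145 for Sema3g, -0.235 to 0.0917 for Sema4c, -0.0723 to 0.0124 for Sema4g, -0.0142 to 0.102 for Sema6d, -0.0147 to 0.0903 for Plxna1 and -0.0434 to 0.0400 for Nrp2. The cause of the losses with an array left out was not tested. The number of arrays limits the precision.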

Other observations

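Cd36, a fatty acid transporter of adipocytes and macrophages, follows Sema3c in the RefSeq gene order of chromosome 5 and was chosen after its values were seen. It was lower by a difference of -0.81 (log2, SE 0.09, adjusted p = 0.00937 by limma), close to the -0.82 of Sema3c. Hgf, the ligand of Met, lies between Sema3e and Sema3c and differed by 0.43 (SE 0.14, adjusted p = 0.0907).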
